A study of Mus musculus with 6 samples.

Results

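The replication-dependent histone genes were followed in embryonic erythroblasts, the nucleated precursors of red cells, with and without Setd8. They were taken as every gene whose symbol begins with Hist1h, Hist2h, Hist3h or Hist4h, which gave 68 of the 23284 genes in the count tables. By the letters that follow, 6 of them were classed as linker histone H1, 18 as H2A, 19 as H2B, 12 as H3 and 13 as H4. The H2B class takes in Hist3h2bb-ps, whose symbol marks a pseudogene and which had no read. Of the 68 genes, 54 lie in the large Hist1 cluster, 10 in Hist2, 3 in Hist3 and 1 is Hist4h4.

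Polyadenylated RNA was sequenced from C57BL/6 embryos at stage E10.5, from live cells sorted for Ter119, an antigen of the red cell lineage, and CD71, the transferrin receptor. The 3 null libraries carried 2 floxed Setd8 alleles with Cre recombinase at Epor, the erythropoietin receptor gene, on in red cell precursors (written SETD8fl/fl EpoR Cre). Control replicates 1 and 3 carried Cre with wild-type Setd8 (Setd8 +/+ EpoRCre), and control replicate 2 carried the floxed alleles without Cre (Setd8 fl/fl EpoR WT). The sample labels give fetal liver as the source and the design text gives fetal blood, and neither says how many embryos stand behind a library. Titles of control replicate 3 and null replicates 2 and 3 end in a letter, and these 3 libraries are called the lettered set; control replicates 1 and 2 and null replicate 1 form the unlettered set. What the letters mark is not given.

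A replicating cell must package its new DNA, and the histone cluster genes supply the proteins for it: H2A, H2B, H3 and H4 form the nucleosome core, and H1 binds the linker DNA between cores. Their messages are unusual in that most end in a short stem-loop and not in a poly(A) tail. The stem-loop is bound by Slbp, the protein that leads the message through processing, export and translation and marks it for decay when replication stops. Selection for poly(A) therefore captures such messages poorly, and the counts below describe the part of histone RNA that passed this selection, not histone output. Some cluster genes, Hist1h1c and Hist1h2bc among them, are known to give polyadenylated transcripts as well, in particular in cells that leave the cell cycle. Setd8 (Kmt5a) is the enzyme that monomethylates H4 at lysine 20.

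In GENCODE models of GRCm38, a stem-loop was found after the stop codon of 43 members, starting 22 to 59 bases downstream of it in the longest model. It was searched for as a 6-base stem opening with GG, a 4-base loop with T as its second base, and a closing arm. The closing arm had to pair with the first, G-T pairs allowed. Models existed for 67 members, and only 50 of them had at least 50 bases after the stop codon. In the shorter models a stem-loop could lie beyond the annotated end. The stem letters differed by class. All 32 stem-loops of H1, H2A, H2B and H3 genes had the arm GGCTCT, and of the 11 in H4 genes 9 had GGCCCT and 2 had GGTCCT. Of the 4 genes that passed the test between null and control, 3 had one, shown here with the stem in capitals, all on the coding strand, together with that of Hist1h4b for the rarer arm.
Hist1h1c: aaaGGCTCTtttcAGAGCCacc
Hist2h3c1: aaaGGCTCTtttcAGAGCCacc
Hist1h4d: aaaGGCCCTtttcAGGGCCact
Hist1h4b: aaaGGTCCTtttcAGGACCact
The fourth, Hist1h2bc, is annotated as a spliced transcript of 2 exons at chr13:23684199-23692908 (GRCm38, plus strand), and its 742 bases after the stop codon held no match. Hist1h1c lies at chr13:23738808-23740367, Hist1h4d at chr13:23581598-23582735 and Hist2h3c1 at chr3:96246685-96248509, each on the plus strand and annotated with a single exon. Their models run on for 880, 822 and 1213 bases after the stop codon, far past the stem-loop.

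Counts assigned to genes ranged from 7756940 in control replicate 1 to 21434719 in control replicate 2, and TMM scaling gave effective sizes from 6757069 (control replicate 1) to 21531353 (control replicate 3). Levels are given as CPM, reads per 1000000 of that effective size, on which 3 reads correspond to 0.139 to 0.444 CPM. Globin genes gave between 26.5% and 45.2% of the counts assigned to genes, before TMM scaling. Setd8 itself stood at 73.8, 74.7 and 203.2 CPM in control replicates 1 to 3 and at 48.8, 100.1 and 96.2 CPM in null replicates 1 to 3. It was lower in the null libraries of each set, with a log2 ratio of -0.83 (SE 0.17, adjusted p = 0.00911 by edgeR's quasi-likelihood test with the title set as a term), but the lettered null libraries lay above the unlettered controls, and the call was lost without control replicate 3 (adjusted p = 0.134). No source used here says which exons are floxed, so the gene's total count is a weak check of the labels.

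Histone cluster reads were scarce, and their total hardly moved. Summed over all members they made up 180, 203 and 163 CPM in control replicates 1 to 3 and 201, 198 and 140 CPM in null replicates 1 to 3, after scaling by TMM factors. Within the unlettered set the null to control log2 ratio of the total was 0.076, and within the lettered set 0.029. The make-up of the total differed between the groups in each set. H4 genes held 59.6% and 56.5% of histone reads in the unlettered controls and 34.5% in the unlettered null library, and 37.8% in the lettered control against 18.3% and 19.5% in the lettered null libraries. H2B genes held 10.6% and 9.10% against 38.0% in the unlettered set, and 16.5% against 30.05% and 32.0% in the lettered set. For both classes the null and control libraries did not overlap, in each set and over all 6.

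**Figure D1:**
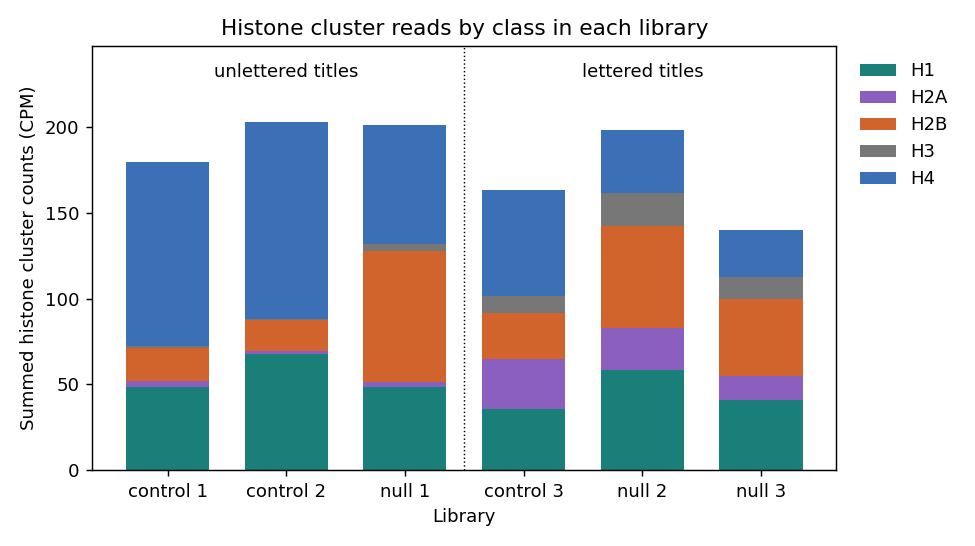
Summed counts of the histone cluster genes per library, in TMM-scaled CPM, split by class; each bar is 1 library. The total lay between 140 and 203 CPM in every library, while the H4 part was smaller and the H2B part larger in the null libraries of each title set.

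A single gene carried most of each of these shifts. Hist1h4d supplied 69.1% of all H4 reads and Hist1h2bc 62.7% of all H2B reads. Without Hist1h4d, the null to control log2 ratio of the H4 sum went from -0.67 to 0.46 in the unlettered set and from -0.97 to -0.10 in the lettered set. Without Hist1h2bc, that of the H2B sum went from 2.03 to 0.15 and from 0.94 to -0.042. The H3 sum behaved in the same manner with Hist2h3c1, which held 40.3% of H3 reads, and went from 2.38 to -0.10 and from 0.65 to -0.16. In H1, Hist1h1c held 39.8% of the reads, and its removal took the ratio from -0.23 to -0.69 and from 0.45 to -1.04. Apart from these leading genes, the H2B and H3 sums differed little between the groups of each set.

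Gene by gene, 30 of the 68 members had enough reads to be tested among 10512 genes: 4 of H1, 6 of H2A, 9 of H2B, 5 of H3 and 6 of H4. Of the others, 8 had no read in any library. The remaining 30 had reads, at most 178 over the 6 libraries (Hist1h1d), but not enough of them in 3 libraries, as the filter asks. With the title set as a term, Hist1h2bc, Hist1h1c and Hist2h3c1 rose in null cells and Hist1h4d fell. That is 3 of 30 against 8.65% of all genes tested that rose, and 1 of 30 against 4.16% that fell, so the numbers of calls lay near the background. The median log2 ratio of the tested members was -0.02, beside 0.044 over all genes tested, with 15 members above 0 and 15 below. With group as the only term no member passed (6 had an unadjusted p below 0.05 in edgeR), while DESeq2 with both terms called 5 higher and 2 lower, beside 12% and 8.39% of all genes tested, adding Hist1h2bp, Hist2h2be and Hist1h1b. The labels name no embryo behind a library, so that the p-values rest on a spread that may be partly technical.

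**Figure D2:**
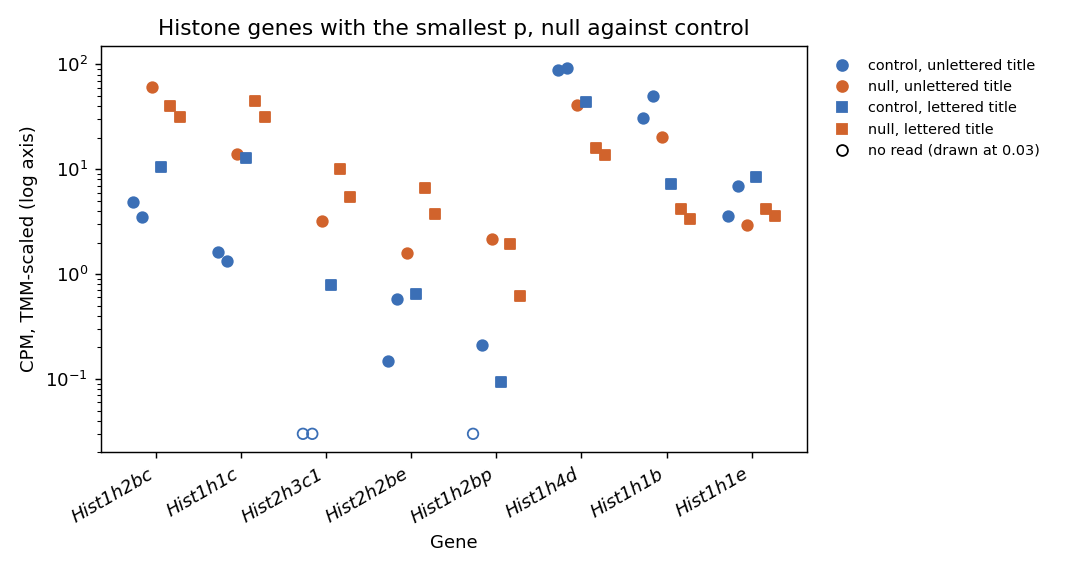
Level of 8 histone cluster genes in each library, in TMM-scaled CPM on a log axis; circles are the unlettered and squares the lettered set, blue control and orange null, and open circles mark libraries with no read. Hist1h2bc, Hist1h1c and Hist2h3c1 are higher in null libraries, and Hist1h4d is lower at 13.7 to 41.4 CPM against 43.9 to 93.4 CPM.

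Among linker histones, Hist1h1c, which encodes H1.2, stood at 1.63, 1.33 and 12.8 CPM in control replicates 1 to 3 and at 14.1, 45.0 and 31.7 CPM in null replicates 1 to 3. All null libraries lay above all controls, but null replicate 1 and control replicate 3, from different sets, were close. The log2 ratio was 2.34 (SE 0.40, adjusted p = 0.0033), with 3.16 within the unlettered and 1.55 within the lettered set. Without null replicate 1 it was 1.58 (adjusted p = 0.138, edgeR), and with group as the only term it did not pass either (adjusted p = 0.275). Hist1h1c had 35.8% of H1 reads in the lettered control and 77.0% and 77.5% in the lettered null libraries, and 3.37% and 1.96% against 29.0% in the unlettered set. The other well-covered H1 genes did not share its course. Hist1h1b, which encodes H1.5, was at 30.8, 50.4 and 7.29 CPM in controls and 20.3, 4.204 and 3.36 CPM in null libraries. It was lower in null libraries of each set, with a log2 ratio of -0.98 (SE 0.32) that did not pass (adjusted p = 0.0667). Hist1h1a, which encodes H1.1, was at 12.0, 9.09 and 1.49 CPM against 11.2, 2.77 and 1.81 CPM, so that the groups overlapped and the sets did not. Hist1h1e, the remaining tested H1 gene, encodes H1.4, overlaps Hist1h2be in the annotation and had a log2 ratio of -1.002 (SE 0.58, adjusted p = 0.297). The testis linker histone Hist1h1t had 2 reads in all.

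H2B gave the gene with the smallest adjusted p among all members. Hist1h2bc was at 4.88, 3.51 and 10.4 CPM in control replicates 1 to 3 and at 60.4, 40.1 and 31.6 CPM in null replicates 1 to 3, from 33, 66 and 225 reads against 1035, 783 and 613. No null library came near a control. The log2 ratio was 2.79 (SE 0.42, adjusted p = 0.00189), with 3.83 within the unlettered and 1.76 within the lettered set. Without null replicate 1 it was 1.77 and did not pass (adjusted p = 0.109, edgeR), nor did it with group as the only term (adjusted p = 0.063). Only 2.43% of the 50-base stretches of its coding sequence were absent from all other members, so reads inside the coding part could belong to sister H2B genes. Hist1h2bj, second in H2B reads, was at 5.62, 3.35 and 4.51 CPM against 4.67, 2.61 and 2.63 CPM, and the groups overlapped. Hist2h2be was at 0.148, 0.585 and 0.650 CPM in controls and 1.58, 6.56 and 3.77 CPM in null libraries. Its null libraries all lay above the controls, and the log2 ratio of 2.48 (SE 1.014) did not pass (adjusted p = 0.136). Hist1h2bp, named after its values were seen, had 93 reads in all and a log2 ratio of 3.84 (SE 1.37, adjusted p = 0.0916). The other 5 tested H2B genes had log2 ratios from -1.76 (Hist1h2bb) to 1.07 (Hist1h2be), and none passed.

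In H3, Hist2h3c1 had no read in control replicates 1 and 2, 17 reads (0.790 CPM) in control replicate 3, and 55, 196 and 106 reads (3.21, 10.05 and 5.47 CPM) in null replicates 1 to 3. All null libraries lay above all controls. The log2 ratio was 4.52 (SE 1.06, adjusted p = 0.0176), a fitted value that depends on how the 2 empty libraries are handled. The call was lost without null replicate 1 (3.28, adjusted p = 0.237 in edgeR), control replicate 1 (adjusted p = 0.0547) or null replicate 2 (adjusted p = 0.0774), and with group as the only term (adjusted p = 0.218). The gene has the same coding sequence as Hist2h3c2, which had 22 reads over all libraries and was not tested, and the counts of this pair could be split arbitrarily between them. Hist1h3a was at 0.740, 0.160 and 1.25 CPM against 0.408, 2.46 and 1.39 CPM, and Hist1h3i at 0.148, 0 and 1.35 CPM against 0, 2.05 and 1.08 CPM, with overlapping groups in both. The 4 tested H3 genes of the Hist1 cluster had log2 ratios from -1.99 (Hist1h3c) to 0.33 (Hist1h3a), and none passed.

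Hist1h4d was the most abundant member by reads, with 24.7% of all histone reads, and the one that fell. It was at 87.5, 93.4 and 43.9 CPM in control replicates 1 to 3 and at 41.4, 15.997 and 13.7 CPM in null replicates 1 to 3, from 591, 1756 and 946 reads against 710, 312 and 266. The groups did not overlap, although null replicate 1 lay just below control replicate 3, and within each set the null libraries were well below. Its log2 ratio was -1.34 (SE 0.21, adjusted p = 0.00201), with -1.12 within the unlettered and -1.56 within the lettered set. With group as the only term it did not pass (adjusted p = 0.189). Of the 50-base stretches of its coding sequence 57.3% occur in no other member. Hist1h4i, next in reads, was at 16.1, 13.3 and 12.5 CPM against 19.6, 9.02 and 7.17 CPM, higher in the unlettered null library than in its controls and lower in the lettered ones. Hist4h4, outside the clusters on chromosome 6, was at 0.148, 2.92 and 1.53 CPM against 2.68, 5.64 and 1.14 CPM, and the groups overlapped. Hist1h4h, named after its values were seen, was at 0.296, 0.479 and 0.557 CPM against 1.52, 1.74 and 1.96 CPM, a log2 ratio of 1.81 (SE 1.07) that did not pass (adjusted p = 0.306) although its groups did not overlap. H4 held both a gene that fell and a low one with higher values in every null library.

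H2A had no member that passed. Hist1h2ae was at 0.148, 0.213 and 11.6 CPM in controls and 0.175, 4.92 and 3.77 CPM in null libraries, Hist3h2a at 3.26, 0.372 and 3.53 CPM against 2.101, 5.59 and 2.22 CPM, and Hist1h2ac at 0, 0.425 and 0.557 CPM against 0.0584, 6.46 and 2.84 CPM. All 3 overlapped between groups. The H2A sum was at 3.996, 1.49 and 28.9 CPM in controls and 2.68, 24.5 and 14.2 CPM in null libraries, which follows the title sets and not the groups.

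Agreement between the sets was partial. The ratio had the same sign in both sets for 18 of the 30 tested members (11 higher and 7 lower), beside 68.6% of all genes tested. Every null library lay above every control for 7 members, beside 14.9% of genes tested, and below for 1, beside 9.16%. A test of whether the null to control ratio differed between the sets called 0 members in edgeR, with 2 residual degrees of freedom, and 1 of all genes tested. Without adjustment 3 members had p below 0.05: Hist1h2bc (0.00339), Hist1h1c (0.0254) and Hist2h3c1 (0.0388), each with the larger ratio in the unlettered set, and so had 7.21% of all genes tested. DESeq2 gave no adjusted p for any of the 30 in this test, and 2 had an unadjusted p below 0.05.

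**Figure D3:**
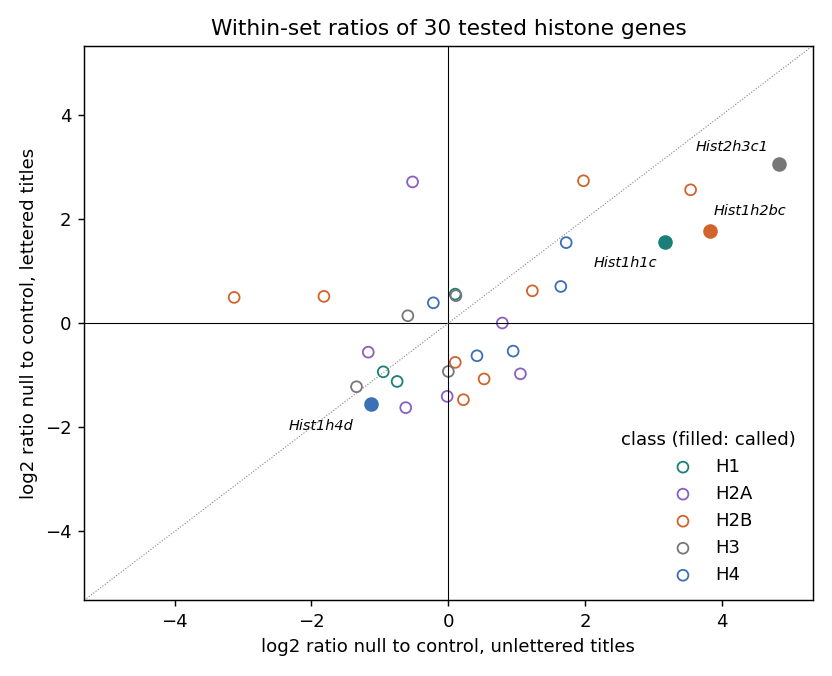
Null to control log2 ratio of the 30 tested histone cluster genes within the unlettered set (horizontal axis) and within the lettered set (vertical axis); each point is 1 gene, coloured by class, filled where it passed the test over both sets, and the dotted line marks equal ratios. The 3 genes that rose lie below the dotted line, at 3.16 to 4.84 against 1.55 to 3.06, and Hist1h4d is negative in both sets.

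The title sets differed more than the groups did. With group as the other term, 8 tested members were lower in the unlettered set, where 17.7% of all genes tested were lower, and 3 were higher, where 10.9% were. The median log2 ratio of the tested members, unlettered to lettered, was -0.75, beside -0.01 over all genes tested. The filter asked for enough reads in 3 libraries, whichever these were. Members read almost only in the lettered set, such as Hist1h3g, thus entered through the libraries where they were high. The count of lower members and this median are therefore partly set by the filter. Members with at least 1 read numbered 32, 37 and 38 in the unlettered libraries and 55, 53 and 52 in the lettered ones. Assigned counts of control replicate 2 and null replicate 1 were higher than those of any lettered library, whereas effective sizes after TMM scaling were 6757069, 18804205 and 17136281 in the unlettered and 21531353, 19503394 and 19372878 in the lettered libraries (controls before null). The part of depth in the number of members detected was not tested. H3 reads summed to 1.33, 0.425 and 3.91 CPM in the unlettered libraries (2 controls, then null) and to 10.03, 19.4 and 12.8 CPM in the lettered ones (control, then 2 null).

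Lowest in the unlettered set was Hist1h3g, which had no read there and 1.67, 0.820 and 0.826 CPM in the lettered libraries, at least 15.7-fold higher against a floor of 3 reads over the unlettered set. Hist1h3i and Hist2h2ac followed, with log2 ratios of -5.52 (SE 1.75, adjusted p = 0.034) and -5.45 (SE 1.48, adjusted p = 0.0161). Hist2h2ac was at 0, 0.160 and 0 CPM in the unlettered libraries and at 3.48, 1.128 and 0.981 CPM in the lettered ones, with no overlap. Hist1h2ae (-5.29), Hist1h2ab (-4.59), Hist1h3c (-4.28), Hist1h2ag (-3.85) and Hist1h1c (-2.20) were lower as well. The 3 genes higher in the unlettered set were Hist1h1a, with a log2 ratio of 2.55 (SE 0.55, adjusted p = 0.00441), Hist1h1b with 2.45 (SE 0.33, adjusted p = 0.000148) and Hist1h4d with 1.26 (SE 0.21, adjusted p = 0.000758). All of the lower calls were lost without control replicate 3, the only lettered control.

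**Figure D4:**
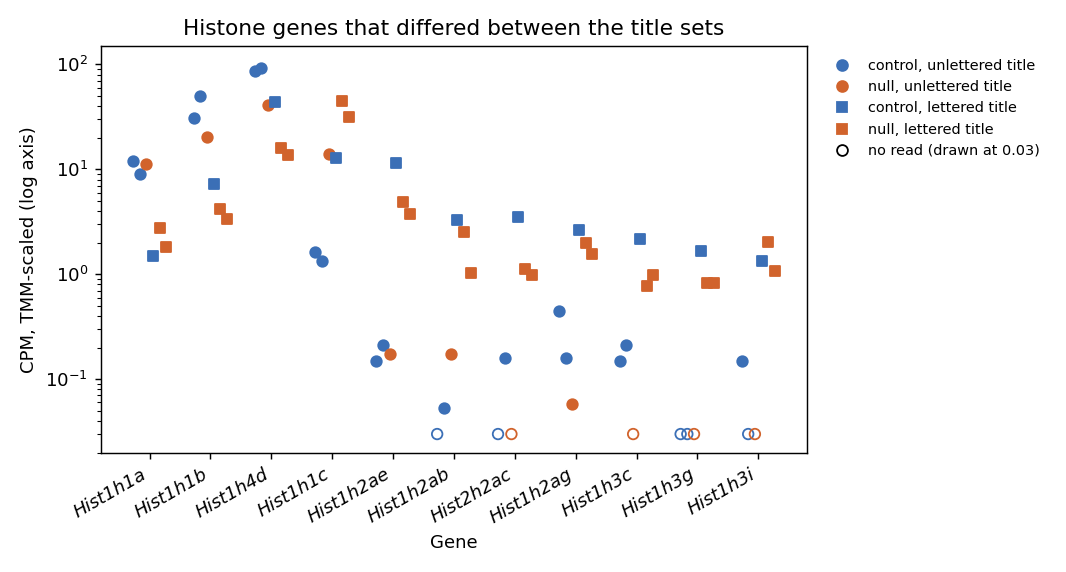
Level of the 11 histone cluster genes that differed between the title sets, per library, in TMM-scaled CPM on a log axis; circles are the unlettered and squares the lettered set, blue control and orange null, and open circles mark libraries with no read. By the fitted ratio the first 3 genes are higher in circles and the other 8 higher in squares. Circles and squares overlap for Hist1h4d and Hist1h1c, and Hist1h3g has no read in any unlettered library.

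Many members are near copies of each other. Of 59 coding sequences that could be compared base by base with one of equal length, 49 were over 95% identical to their nearest relative and 10 were identical to it, among them 5 of the 8 members with no read. The share of 50-base coding stretches found in no other member had a median of 25.8% in the 8 genes lower in the unlettered set, 100% in the 3 genes higher there, and 28.9% in the 19 others. The unlettered tables list reads without a unique alignment, 24.1% and 22.5% of the totals of the 2 controls and 32.4% of that of the null library, and the lettered tables hold no such line. Whether such reads were treated alike in both sets is not given, and their part in the difference between sets was not tested.

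The annotated 3' end varied with the null to control ratio among the tested members. For the 10 with more than 700 bases after the stop codon in the longest model the median log2 ratio was 1.06, with 8 above 0 and 2 below. It was -0.38 for the 6 with more than 100 and up to 700 bases (2 above, 4 below) and -0.36 for the 14 with 100 bases or fewer (5 above, 9 below). A poly(A) signal (AATAAA or ATTAAA) stood in the last 50 bases of 10 tested members, whose median was 1.44 with 8 above 0, and the 20 without it had a median of -0.50 with 7 above 0. Hist1h4d, with 822 bases and no such signal at the annotated end, was an exception by length, as was Hist1h1e. Hist1h2bc, which rose with a log2 ratio of 2.79, had no such signal there either and was an exception by signal. This grouping was made after the values were seen, and the models are from GRCm38 and the counts from mm9. Low genes were tested only where enough libraries had reads, which could be those of 1 group or of 1 title set. The medians therefore describe these genes and test nothing.

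**Figure D5:**
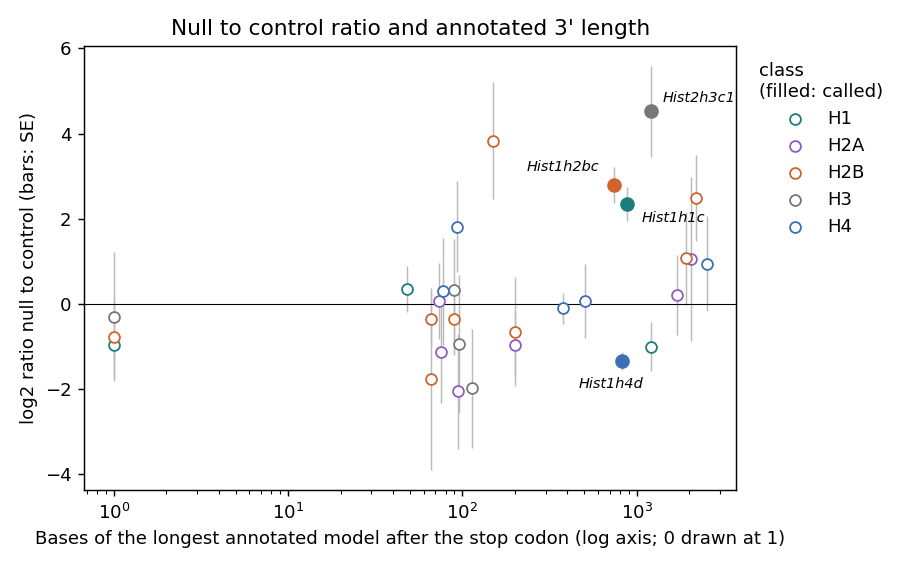
Null to control log2 ratio of the 30 tested histone cluster genes (vertical axis, bars are standard errors) against the bases annotated after the stop codon in the longest GENCODE model (horizontal log axis, 0 drawn at 1); points are coloured by class and filled where the gene passed. Beyond 700 bases 8 of 10 genes are above 0, and all 4 filled points lie there.

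Promoters of the clusters share a few short elements. RefSeq (GRCm38.p6) gave 62 promoter windows, from 250 bases before to 50 after the start, for 61 members, and on either strand TATAAA (the TATA box) occurred in 56.5% of them, against 13.6% of all 32851 windows of that length. CCAAT, the core of the site of NF-Y, occurred in 85.5% against 37.4%, TTTGCAT, the core of the octamer element described in H2B promoters, in 24.2% against 4.63%, and AAACACA, the H1 box, in 14.5% against 7.18%. No motif contains another, and windows of divergent gene pairs overlap, so some matches count for both genes. The windows of Hist1h1c, which rose, and of Hist1h4d, which fell, are shown for comparison, with these motifs in capitals, at chr13:23738557-23738856 and chr13:23581318-23581617 on the plus strand.
Hist1h1c: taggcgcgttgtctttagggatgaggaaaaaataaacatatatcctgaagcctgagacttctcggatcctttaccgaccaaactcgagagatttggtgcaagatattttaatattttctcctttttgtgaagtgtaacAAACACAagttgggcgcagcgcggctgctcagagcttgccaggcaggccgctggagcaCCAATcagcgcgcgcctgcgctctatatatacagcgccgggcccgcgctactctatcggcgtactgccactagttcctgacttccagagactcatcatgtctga
Hist1h4d: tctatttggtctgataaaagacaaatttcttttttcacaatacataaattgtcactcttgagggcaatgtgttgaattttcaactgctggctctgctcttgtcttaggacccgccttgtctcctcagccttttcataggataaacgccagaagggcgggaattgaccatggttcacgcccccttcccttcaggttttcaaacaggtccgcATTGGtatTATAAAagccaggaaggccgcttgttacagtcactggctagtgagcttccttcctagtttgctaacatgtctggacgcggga
The first held CCAAT and AAACACA but not TATAAA in these letters, and the second TATAAA and CCAAT on the minus strand. The window of Hist1h2bc is not shown.

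Genes that process histone messages, chaperone histones or run S phase were set beside the members, from lists drawn up with earlier results of these data known. Of 19 genes of histone mRNA processing 2 fell and 0 rose, with a median log2 ratio of -0.48 and 18 below 0, where 8.65% of all genes tested rose and 4.16% fell. Without null replicate 1 or control replicate 3 only 1 fell, and without null replicate 3 there were 5. Over all genes tested, 40 of 10858 fell without null replicate 1 and 180 of 11095 without control replicate 3. It was 235 of 11041 without null replicate 2 and 734 of 10990 without null replicate 3. Slbp, the stem-loop binding protein, was at 223, 225 and 369 CPM in control replicates 1 to 3 and 132, 187 and 219 CPM in null replicates 1 to 3, lower in all null libraries, with a log2 ratio of -0.81 (SE 0.15, adjusted p = 0.00519). Cstf2, a subunit of the cleavage stimulation factor, had a log2 ratio of -1.08 (SE 0.22, adjusted p = 0.00972). Of 15 histone chaperones and assembly factors 3 fell and 1 rose, with a median of -0.19. Leaving out null replicate 1 left 0 calls, and only 1 fell without control replicate 3 or null replicate 2, while 5 fell without null replicate 3. Those that fell were both subunits of the FACT complex, Ssrp1 with -0.76 (SE 0.16, adjusted p = 0.0106) and Supt16h with -1.03 (SE 0.25, adjusted p = 0.0207), and Nasp, a chaperone of H3 and H4, with -0.56 (SE 0.16, adjusted p = 0.0369). Dnajc9, a heat shock co-chaperone that binds H3 and H4, rose from 140, 142 and 154 CPM to 252, 217 and 216 CPM, a log2 ratio of 0.66 (SE 0.15, adjusted p = 0.0165), a call lost when either unlettered control was left out, and when null replicate 1 or 2 was.

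Among 24 S phase genes 6 fell and 0 rose, beside 4.16% and 8.65% of all genes tested. Their median log2 ratio was -0.51, with 21 below 0. The count that fell depended on single libraries. It was 0 when null replicate 1 was left out, 3 when control replicate 3 was, and 11 when null replicate 3 was. Over all genes tested, 40 of 10858, 180 of 11095 and 734 of 10990 fell in these fits. DESeq2 called 12 of the 24 lower, beside 8.39% of all genes tested. The replicative helicase subunits Mcm4 (-0.93, SE 0.17, adjusted p = 0.00423), Mcm2 (-0.90, SE 0.17, adjusted p = 0.00594) and Mcm6 (-0.87, SE 0.19, adjusted p = 0.0131) were among the 6 that fell in the main fit. So was Pola1, the catalytic subunit of DNA polymerase alpha (-1.15, SE 0.23, adjusted p = 0.00711). Mcm4 was at 277, 301 and 225 CPM in controls and 147, 104 and 139 CPM in null libraries. With group as the only term no gene of these 3 lists passed by edgeR.

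Summed markers of macrophages, megakaryocytes, progenitors and endothelial cells were higher in every null library than in any control, though not every gene followed. The summed level of 10 macrophage markers was 1.86 to 10.6 CPM in controls and 30.5 to 87.6 CPM in null libraries, and 3 of the 6 tested rose. That of 7 megakaryocyte markers was 14.1 to 31.1 against 40.8 to 85.8 CPM (1 of 4 tested rose), that of 6 of 7 progenitor markers 1.63 to 5.02 against 10.6 to 75.6 CPM (1 of 3 rose), and that of 6 endothelial markers 0.319 to 1.16 against 5.68 to 20.0 CPM (2 of 2 rose), with Emcn at 0 throughout. In null replicates 1 to 3 the megakaryocyte sum was mostly Itga2b, at 36.53, 67.01 and 50.02 CPM. Gp5 was also higher in every null library than in any control, and Gp9 was lower. In the progenitor sum, Mpo held 61.2 of the 75.6 CPM of null replicate 3. Gata2 and Myb were higher in every null library than in any control. Kit, Cd34 and Flt3 were lower in the null libraries of the lettered set. Kit and Cd34 were higher in that of the unlettered set. Hepatic markers summed to 0.148 to 3.34 against 0.103 to 4.202 CPM, with Alb at 0 in every library, although the labels name fetal liver. The 12 erythroid markers, globins included, summed to 348857 to 527450 CPM in controls and 215198 to 505746 CPM in null libraries, and 2 fell. In bulk RNA, a larger share of such cells and more RNA per cell cannot be told apart. Their part in the changes of Hist1h2bc, Hist1h1c, Hist2h3c1 and Hist1h4d was not tested.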

How the data were processed

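Counts of reads per gene symbol were deposited by the authors as 1 table per library, whole numbers without normalization. Per the submitters' processing notes, FastQC, Trimmomatic 0.32, TopHat2 2.1.0, HTSeq 0.6.1 and edgeR were used with build mm9; their order and options, the strand setting and the treatment of reads with several alignments are not stated by any source used here. The labels' protocols name the Arcturus PicoPure kit for extraction. Lines that name no gene stayed out of library sizes. In the unlettered tables, 42.9%, 7.72% and 6.07% of the total fell outside any feature and 0.657%, 2.17% and 2.35% were ambiguous (control replicates 1 and 2, then null replicate 1).

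In R 4.3.3, edgeR 4.0.16 was used with filterByExpr on group, TMM factors (0.801 to 1.27), estimateDisp, robust glmQLFit and glmQLFTest, 2-sided, with terms for title set and group (3 residual degrees of freedom, common coefficient of variation 0.399) and Benjamini-Hochberg adjustment over 10512 genes at 0.05. CPM values are TMM-scaled. Within a set, mean log2 CPM values (prior count 2) were subtracted, without a test. DESeq2 1.42.0 was run as an alternative. The fit was also run on simulated counts whose spread was the same for every gene and smaller than the fitted one. That run gives no error rate for the sparse members. Gene models came from GENCODE and promoters from RefSeq, both GRCm38. A member was named with values when it passed, when it was among the 3 of its class with the most reads, or when it was among the 3 with the largest ratio between sets in either direction; from the lists, up to 4 passing genes a direction with the smallest adjusted p were named, and Slbp. Hist1h2bp, Hist1h4h, Hist1h1e and genes at the end of a range were named outside this rule, after their values were seen. The members and lists were chosen with earlier results of these data known. Floors cover counting error only.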

Additional observations from a re-analysis of the deposited data

How the results depend on the processing

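No paired analysis was possible because the labels give no replicate numbers that the groups share. Between null and control, 3 members rose and 1 fell in the main analysis. With group as the only term 0 rose and 0 fell, DESeq2 gave 5 and 2, and without a filter on low counts 2 fell. Leaving out 1 library at a time gave 0 to 3 that rose and 1 that fell throughout. The calls of the 3 that rose were lost without null replicate 1, the only unlettered null library. Hist1h2bc then had an adjusted p of 0.109, Hist1h1c 0.138 and Hist2h3c1 0.237, all with edgeR. Their ratios stayed above 0, and that fit compares null with control within the lettered set only. Hist2h3c1 was also lost without control replicate 1 (0.0547) or null replicate 2 (0.0774). Hist1h4d passed in each of these 6 edgeR fits, at 0.0434 or below, and was lost with group as the only term (0.189). Over all genes tested, the split of calls moved from 909 higher and 437 lower to 897 and 256 without TMM factors, to 869 and 734 without null replicate 3, and to 162 and 40 without null replicate 1. Of the 3 gene lists, DESeq2 called 6 of histone mRNA processing, 6 chaperones and 12 S phase genes lower, and edgeR without the filter 5, 3 and 13, against 2, 3 and 6. Over all genes, DESeq2 called 882 of 10512 lower and edgeR without the filter 723 of 19008, against 437 of 10512. The median ratio between the sets moved from -0.01 to -0.48 without TMM factors.

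Between the title sets, 8 members were lower and 3 higher; leaving out 1 library gave 0 to 6 lower and 2 to 3 higher, with 0 lower without control replicate 3. The cause was not tested.

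Without the gene with the most reads, the log2 ratios of null to control of the class sums moved: H1 to -0.69 (unlettered) and -1.04 (lettered), H2B to 0.15 and -0.042, H3 to -0.10 and -0.16, and H4 to 0.46 and -0.10. On plain library sizes the unlettered ratio was 1.90 for H2B and -0.80 for H4, and with globin genes removed 1.78 and -0.92. Leaving out single libraries, chosen after seeing the data, kept the direction of the H2B, H3 and H4 sums in both sets, while H2A in the unlettered set (0.14) came to 0.85 without control replicate 1 and -0.57 without control replicate 2, and in the lettered set (-0.63) to between -1.02 and -0.24. In the unlettered set H1 (-0.23) came to 0.013 without control replicate 2 and -0.48 without control replicate 1, and H2A came to -0.11 with globin genes removed.

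The sign of the ratio changed in 19 refits of single genes, in none of which the gene was a call. With group as the only term the null to control ratio came to -0.51 for Hist1h1a and 1.0 for Hist1h3i. Leaving out single libraries gave ratios on both sides of 0 for Hist3h2a (-0.20 to 0.98), Hist1h2ac (-1.99 to 3.04), Hist1h2bj (-0.79 to 0.050), Hist1h3a (-0.050 to 0.86), Hist1h3i (-2.97 to 0.21) and Hist1h4i (-0.63 to 0.40), and from -1.02 to 0 for Hist1h3g. Between the sets this held for Hist1h2bc (-1.34 to 0.82), Hist1h2bj (-0.021 to 0.90) and Hist4h4 (-1.23 to 0.55), and without TMM factors Hist1h2bj came to -0.056.

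Depth limits most members: 38 of 68 were not tested, and 3 reads are worth up to 0.444 CPM after TMM scaling. With 3 libraries a group and 1 null or 1 control library in a set, the pooled spread stands in for replicates that a set lacks.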
